A study of Mus musculus with 6 samples.

Results

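Ligands, receptors and intracellular mediators of the TGF-beta, bone morphogenetic protein (BMP) and activin pathways were followed in 6 RNA samples, 3 labelled anti-PD-1 and 3 labelled control. The set holds 49 genes of these pathways, listed by symbol, and a gene counted as measured where a row of the array table carried its symbol alone. By that rule 48 of the 49 were measured, among 18630 symbols with a row of their own and 21448 rows with values. Where a symbol had several rows, the row with the highest mean signal was used.

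Both groups derive from Lewis lung carcinoma (LLC), a mouse lung tumour cell line, and 1000000 cells in Matrigel were injected under the skin of the flank, per the labels' protocols. In the anti-PD-1 group 250 µg of antibody was given into the peritoneum every 3 days to block PD-1, a receptor that restrains T cells. Control animals received an IgG2a isotype antibody. The labels call the material subcutaneous tumour, whereas the series' design text speaks of cells surviving 7 days after treatment and of untreated control cells; strain and age of the animals are not given in the sources used here. A single cell line was used, no label says that the replicates came from separate animals, and p-values therefore reflect only how far these samples spread, possibly for technical reasons.

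Ligands of this family bind pairs of type I and type II receptor kinases at the cell surface, and the activated type I receptor phosphorylates SMAD transcription factors. TGF-beta and activin act mainly through SMAD2 and SMAD3, BMPs through SMAD1, SMAD5 and SMAD9, and all of these pair with SMAD4. The pathway is bounded by latent binding proteins and secreted antagonists outside the cell and by inhibitory SMADs and nuclear repressors inside it, and in carcinoma it is known for roles in growth arrest, matrix production and mesenchymal transition.

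The deposited table limits how these values can be read. Its headers name a mouse array, yet 46 of the 48 member rows carried human Ensembl transcripts and 0 carried mouse ones, so that genes are called here as the file calls them, with the species unsettled. A difference is the anti-PD-1 mean less the control mean of the deposited log2 signals, with groups taken from the sample labels. However, in the authors' deposited table the group averages named C and P follow the signals of the opposite letter in 99.6% of rows, and in 44 of the 48 member rows. Should those letters hold instead of the labels, the sign of every difference turns. Array medians lay between 7.71 and 7.77, and the number of arrays limits the precision. Among cell type markers, 9 of 10 epithelial genes lay above the median signal of all rows, while 8 of 10 T cell, 5 of 9 fibroblast and 4 of 10 endothelial markers lay below the 25th percentile of row means (a log2 signal of 5.09).

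Of the 48 measured members, 26 were higher and 3 lower in anti-PD-1 samples at an adjusted p under 0.05 (limma, Benjamini-Hochberg over all rows), and 19 did not pass. The number higher was 21 or 22 without any 1 array. The 26 include SMAD2 and SMAD3, whose rows are in conflict as described below. Over all 21448 rows 29.8% passed that threshold, 14.7% higher and 15.1% lower, against 60.4% of the members. The median difference of the members was 0.46, beside 0.01 over all rows. The members were on the whole bright, with 35 above the median signal. Among rows above that median 48% passed, 22.8% higher and 25.1% lower, whereas of these 35 members 24 were higher and 3 lower. Groups did not overlap in 31 members, 28 higher and 3 lower, against 43.5% of all rows, 21.7% higher and 21.9% lower. These members were chosen with results of the same samples known, and no test of the set was made.

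**Figure D1:**
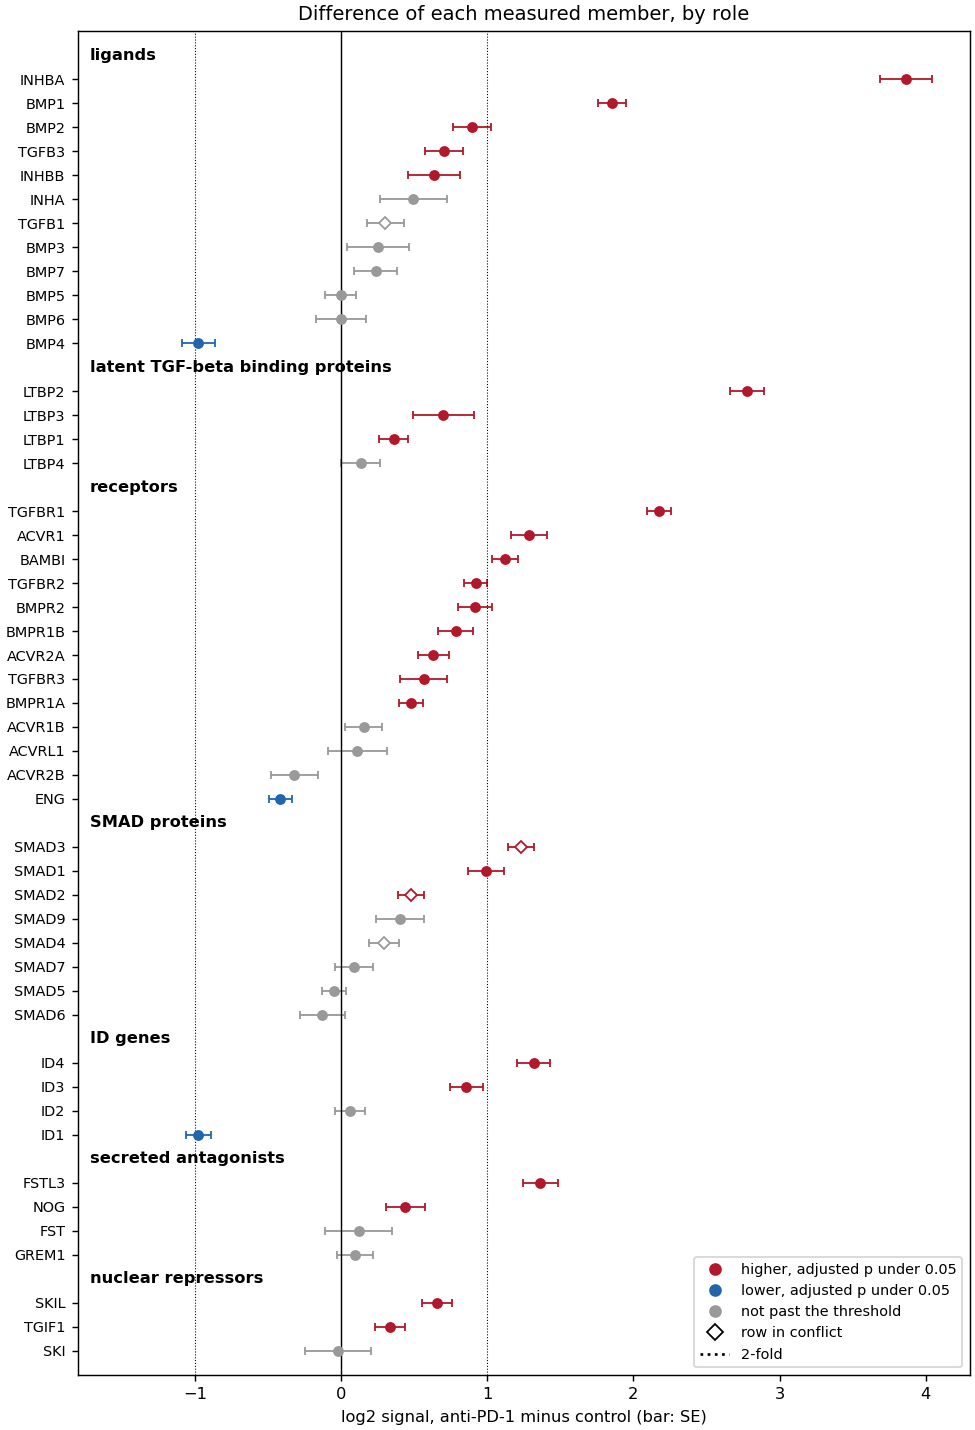
Difference in log2 signal, anti-PD-1 minus control, for each of the 48 measured members, grouped by role, with the standard error of the limma fit as bars (3 samples a group). Red marks the 26 members that were higher, blue the 3 that were lower (BMP4, ENG and ID1), grey those not past the threshold, and open diamonds the 4 rows whose deposited averages do not follow from their signals.

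Differences of at least 2-fold past the threshold were seen in 9 members, all higher in anti-PD-1 samples, where 7.66% of all rows met that rule, 4.03% higher and 3.63% lower. They were INHBA, BMP1, LTBP2, TGFBR1, ACVR1, BAMBI, SMAD3, ID4 and FSTL3. SMAD1 lay just short of 2-fold at 0.99, and BMP4 and ID1 at -0.98 each. The 9 members come from the ligand, latent binding, receptor, SMAD, target and antagonist groups. SMAD3 is a row in conflict, meaning that the averages in the authors' deposited table do not follow from its signals, which leaves 8 outside such rows.

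**Figure D2:**
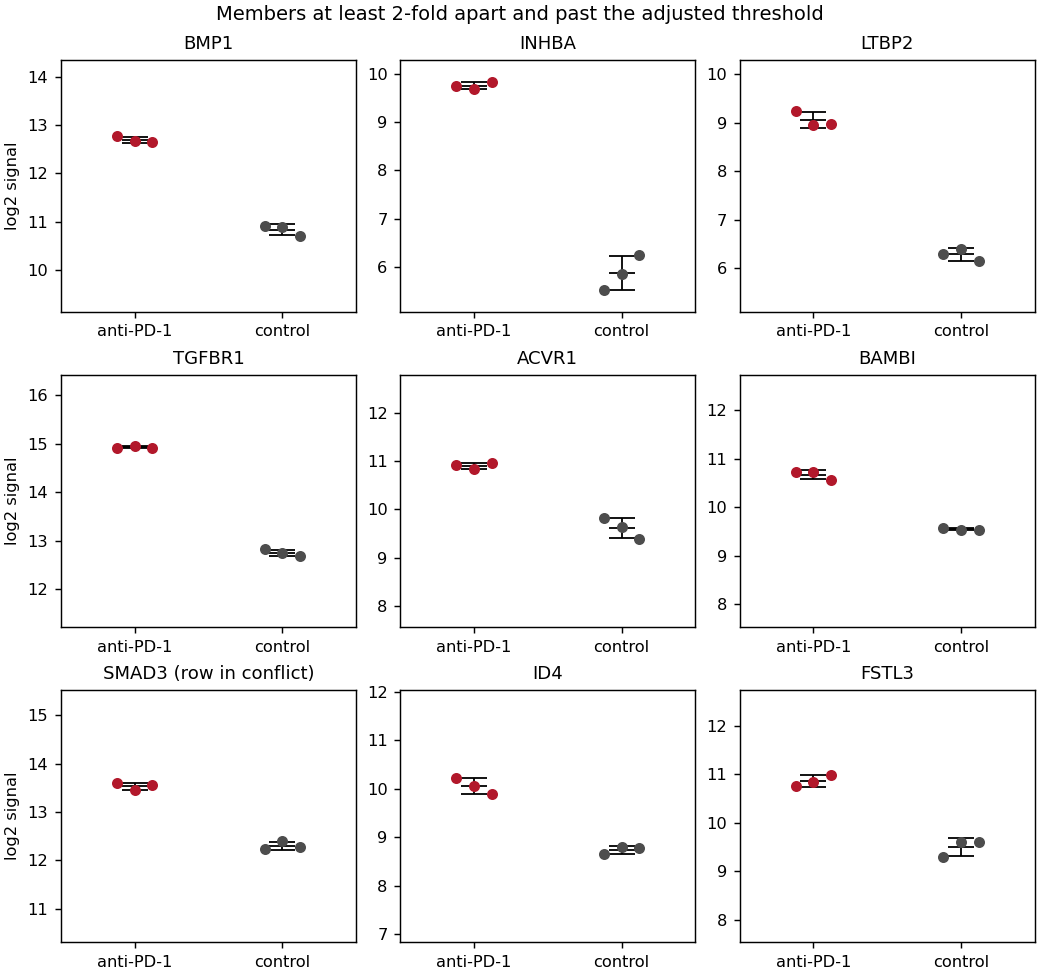
Log2 signal of each sample (points) with the group mean and SD (horizontal marks and bars) for the 9 members at least 2-fold apart, anti-PD-1 left and control right. Every panel spans the same height on the log2 scale but has its own level. The groups are separate in all 9 panels, with the widest gap for INHBA.

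Among the 12 measured ligand genes 5 were higher and 1 lower (50%, against 29.8% of all rows). Of rows above the median signal, where 6 of the 12 lie, 48% passed. The change of widest size was in an activin subunit. INHBA encodes the beta A chain that forms activin A as a dimer. Its log2 signals were 9.75, 9.69 and 9.82 in anti-PD-1 samples, against 5.54, 5.87 and 6.25 in control samples. Every anti-PD-1 sample was thus more than 3 log2 units above every control sample, and the difference was 3.87 ± 0.18 (SE), or 14.6-fold (adjusted p = 1.98e-05). The file places INHBA at chr7:41685114-41703108, with the build unsettled. INHBB, the beta B chain of activin B, was higher by 0.64 ± 0.18 (adjusted p = 0.0335), with anti-PD-1 samples between 6.04 and 6.33 and control samples between 5.26 and 5.90. INHA, whose product joins the beta chains to make inhibin, differed by 0.49 ± 0.23 and did not pass (adjusted p = 0.165). Without any 1 library other than control replicate 2, INHBB did not pass either (adjusted p from 0.0573 to 0.105).

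BMP1 stands in this group by name only, since it encodes a secreted metalloproteinase that processes procollagen and other matrix proteins. It had log2 signals of 12.77, 12.67 and 12.64 in anti-PD-1 samples, against 10.91, 10.90 and 10.71 in control samples. The groups were separate, with a difference of 1.85 ± 0.10 (adjusted p = 2.85e-05).

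True BMP ligands went both ways. BMP2, an inducer of bone and cartilage, had signals of 11.03, 11.16 and 11.24 in anti-PD-1 samples, against 10.31, 10.42 and 10.01 in control samples, a rise of 0.90 ± 0.13 (adjusted p = 0.00225). BMP4, which acts through the same receptors, had 11.87, 11.70 and 11.78 in anti-PD-1 samples, against 12.84, 12.87 and 12.57 in control samples. It fell by 0.98 ± 0.11 (adjusted p = 0.000796), and no anti-PD-1 sample reached the lowest control sample. BMP3, BMP5, BMP6 and BMP7 did not pass, with differences from -0.003 to 0.25. BMP6 and BMP7 were the 2 members below the 25th percentile of row means, where a difference is hard to measure.

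Of the TGF-beta ligands, TGFB3 rose by 0.70 ± 0.13 (adjusted p = 0.00659), with signals of 8.59, 8.47 and 8.47 in anti-PD-1 samples, against 7.66, 8.07 and 7.69 in control samples. TGFB1 is a row in conflict and is described below. TGFB2 had no row of its own and is the 1 member not measured by the rule. A row that names TGFB2 together with TGFB2-OT1, a transcript from the same locus, had signals of 16.25, 16.29 and 16.26 in anti-PD-1 samples, against 14.08, 14.03 and 14.02 in control samples. That row was higher by 2.22 ± 0.08 (adjusted p = 9.59e-06), and its 2 symbols cannot be told apart. It was examined after its values were seen and enters no count.

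Latent TGF-beta binding proteins tether the inactive ligand in the extracellular matrix, and 3 of the 4 were higher. That is 75%, against 29.8% of all rows and 48% of rows above the median signal, where 3 of the 4 lie. LTBP2, which sits on elastic microfibrils and, unlike the others, is not known to bind the latent ligand, had signals of 9.24, 8.96 and 8.97 in anti-PD-1 samples, against 6.29, 6.40 and 6.15 in control samples. Its difference of 2.78 ± 0.12 (adjusted p = 1.68e-05) was the next largest among the members after INHBA, and the groups lay far apart. LTBP1 was higher by 0.36 ± 0.10 (adjusted p = 0.0339) and LTBP3 by 0.70 ± 0.21 (adjusted p = 0.0428). LTBP4 differed by 0.13 ± 0.13 and did not pass. Its brighter row covers a short stretch of the gene, and its other row differed by 0.34 (adjusted p = 0.0876). LTBP1 did not pass without any 1 library other than anti-PD-1 replicate 1 (adjusted p from 0.0536 to 0.101). The call on LTBP3 was lost without control replicate 1 or 3 or anti-PD-1 replicate 1 or 3 (adjusted p from 0.061 to 0.125).

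Among the 13 receptors and co-receptors 9 were higher and 1 lower (76.9%, against 29.8% of all rows). Of rows above the median signal, where 11 of the 13 lie, 48% passed. All 4 type I receptors that passed and all 3 type II receptors that passed were higher. TGFBR1, the type I receptor of TGF-beta, had signals of 14.92, 14.95 and 14.91 in anti-PD-1 samples, against 12.82, 12.74 and 12.69 in control samples. Samples of a group lay close together, and the groups differed by 2.18 ± 0.08 (4.52-fold, adjusted p = 1.14e-05). The file places TGFBR1 at chr9:99104038-99154192.

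TGFBR2, the type II partner of TGFBR1, had signals of 12.72, 12.75 and 12.70 in anti-PD-1 samples, against 11.80, 11.82 and 11.79 in control samples. The rise was 0.92 ± 0.08 (adjusted p = 0.0002), smaller than that of TGFBR1. TGFBR3, the co-receptor betaglycan that presents TGFB2 to TGFBR2, was higher by 0.57 ± 0.16 (adjusted p = 0.037). This call was lost without control replicate 1 or 2 or anti-PD-1 replicate 1 or 2 (adjusted p from 0.0841 to 0.11).

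On the BMP side ACVR1, the type I receptor ALK2, had signals of 10.92, 10.83 and 10.95 in anti-PD-1 samples, against 9.82, 9.63 and 9.40 in control samples. It rose by 1.28 ± 0.12 (adjusted p = 0.000352) with no overlap. BMPR2, a type II receptor, had 12.27, 12.02 and 12.01 in anti-PD-1 samples, against 11.28, 11.24 and 11.03 in control samples, a rise of 0.92 ± 0.12 (adjusted p = 0.00126). The type I receptors BMPR1B and BMPR1A were higher by 0.78 ± 0.12 (adjusted p = 0.00269) and 0.48 ± 0.08 (adjusted p = 0.0054). ACVR2A, a type II receptor for activins, was higher by 0.63 ± 0.11 (adjusted p = 0.00434). The remaining receptor kinases ACVR1B, ACVR2B and ACVRL1 did not pass, with differences of 0.15, -0.32 and 0.11. For ACVRL1 the brighter row covers a short stretch of the gene, and its other row differed by 0.15 (adjusted p = 0.397).

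BAMBI is a pseudoreceptor without kinase activity that blocks signalling by type I receptors. It had signals of 10.73, 10.73 and 10.56 in anti-PD-1 samples, against 9.58, 9.54 and 9.53 in control samples, and rose by 1.12 ± 0.09 (adjusted p = 0.000151). ENG, the co-receptor endoglin best known from blood vessels, was the 1 receptor that fell. Its signals were 14.70, 14.70 and 14.73 in anti-PD-1 samples, against 15.11, 15.15 and 15.12 in control samples, and the difference of -0.42 ± 0.08 (adjusted p = 0.00674) was small but many times the spread within groups.

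Since these are bulk samples, fewer cells of a type and less RNA per cell cannot be told apart. Of 10 endothelial markers 0 were higher and 1, ESAM, was lower (10%, against 29.8% of all rows). The log2 of their summed linear signal lay between 10.81 and 10.87 in anti-PD-1 samples and between 10.61 and 10.99 in control samples. PECAM1 and CDH5, which define endothelium, lay below the 25th percentile of row means. Of 11 macrophage and monocyte markers CD14 was higher (1.19) and CD68 lower (-1.64), which is 18.2% called. The median difference over all 11 was 0.04. CD68 averaged 12.76 in anti-PD-1 samples and 14.40 in control samples and makes up most of the summed level of 12.88 to 13.15 in anti-PD-1 samples and 14.41 to 14.53 in control samples. The part of these cells in the fall of ENG was not tested.

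Of 8 SMAD genes 3 passed with higher signals (37.5%, against 29.8% of all rows). Of rows above the median signal, where 7 of the 8 lie, 48% passed. SMAD2 and SMAD3 among the 3 are rows in conflict. Outside such rows 1 of 5 was higher and 0 were lower. SMAD1, which carries BMP signals, had 11.72, 11.46 and 11.33 in anti-PD-1 samples, against 10.47, 10.44 and 10.63 in control samples. It rose by 0.99 ± 0.12 (adjusted p = 0.00121) without overlap. SMAD5, which shares its role, differed by -0.05 ± 0.08, and SMAD9 by 0.40 ± 0.16, and neither passed. SMAD6 and SMAD7, the inhibitory SMADs that are themselves induced by BMP and TGF-beta signals, differed by -0.13 and 0.09 and did not pass. A dimmer row named SMAD7 that the file classes as non-coding was lower by 0.50 ± 0.13 (adjusted p = 0.0276).

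TGFB1, SMAD2, SMAD3 and SMAD4, at the centre of TGF-beta signalling, are the 4 members in conflict (8.33% of members, against 0.52% of all rows). TGFB1 had signals of 13.76, 13.66 and 14.10 in anti-PD-1 samples, against 13.51, 13.51 and 13.59 in control samples. The groups did not overlap, but the difference of 0.30 ± 0.13 did not pass (adjusted p = 0.13). In the authors' deposited table the averages for TGFB1 are 8.39 (named C) and 9.84 (named P), below all 6 signals, with a false discovery rate of 0.0001. With the letters exchanged, as in 99.6% of rows, these averages put TGFB1 lower in anti-PD-1 samples, opposite to its signals, and no direction is drawn for it.

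For SMAD3, the main carrier of TGF-beta signals to DNA, the conflict likewise concerns the direction. Its signals were 13.59, 13.45 and 13.55 in anti-PD-1 samples, against 12.24, 12.39 and 12.27 in control samples, a difference of 1.23 ± 0.09 (adjusted p = 0.00011). The averages in the authors' deposited table are 12.54 (named C) and 13.27 (named P). With the letters exchanged, as in nearly all other rows, these averages run opposite to the signals, and no direction is drawn for SMAD3.

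For SMAD2 and SMAD4 the deposited averages lie close to the signals. SMAD2 had signals of 12.71, 12.73 and 12.72 in anti-PD-1 samples, against 12.36, 12.22 and 12.15 in control samples, a difference of 0.48 ± 0.09 (adjusted p = 0.0072). The authors' deposited table gives SMAD2 an average named C of 12.62, which is 0.10 from the biweight average (a mean that gives outlying values less weight) of the anti-PD-1 signals. SMAD4, the common partner, had 13.58, 13.32 and 13.35 in anti-PD-1 samples, against 13.17, 13.09 and 13.11 in control samples, and did not pass (0.29 ± 0.10, adjusted p = 0.0694). Its average named C in the authors' deposited table, 13.17, lies 0.17 from the biweight average of the anti-PD-1 signals. The average of SMAD4 named P is 13.11. The averages are thus 0.06 apart, with a false discovery rate of 0.507, so that the conflict is not small beside the difference. With the 4 rows set aside, 24 of 44 members were higher and 3 lower.

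**Figure D3:**
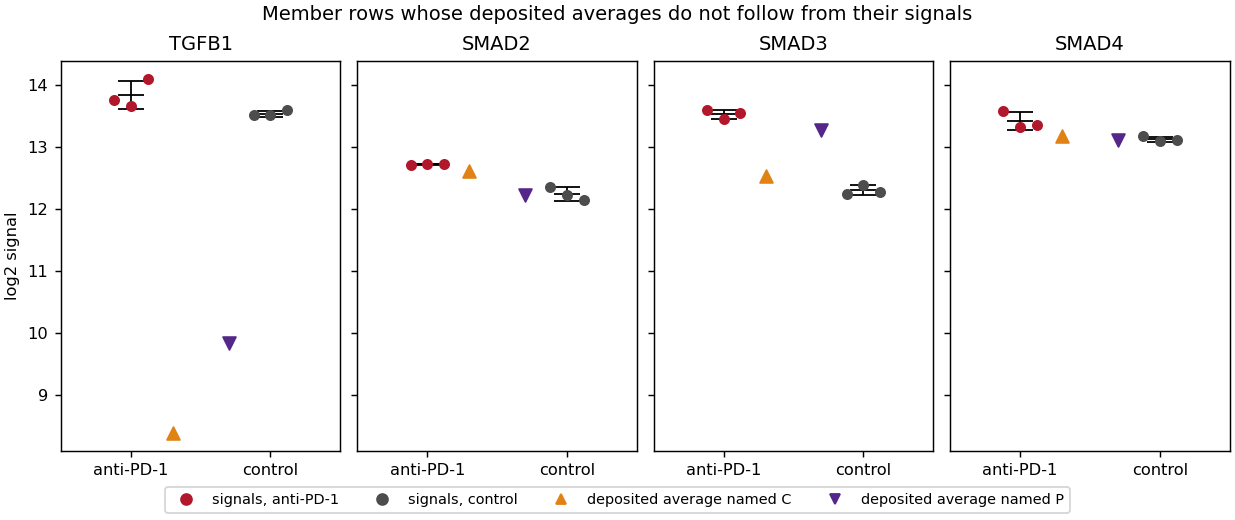
Log2 signals of the 3 anti-PD-1 and 3 control samples (circles, with mean and SD) and the averages in the authors' deposited table (triangles) for TGFB1, SMAD2, SMAD3 and SMAD4. The averages of TGFB1, at 8.39 and 9.84, lie below all of its signals, those of SMAD3 run between its groups, and those of SMAD2 and SMAD4 lie close to the signals.

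ID genes encode inhibitors of basic helix-loop-helix factors and are widely used as readouts of BMP signalling. They did not move together. ID1 had signals of 12.75, 12.70 and 12.75 in anti-PD-1 samples, against 13.76, 13.77 and 13.60 in control samples, and fell by 0.98 ± 0.09 (adjusted p = 0.000265). ID3 had 13.42, 13.38 and 13.30 in anti-PD-1 samples, against 12.31, 12.61 and 12.61 in control samples, and rose by 0.86 ± 0.11 (adjusted p = 0.0014). The groups were separate in both genes, in opposite directions.

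ID4 had signals of 10.22, 10.05 and 9.89 in anti-PD-1 samples, against 8.65, 8.79 and 8.77 in control samples, a rise of 1.32 ± 0.11 (adjusted p = 0.000197). ID2 differed by 0.06 ± 0.10 and did not pass. Other genes known to respond to BMPs showed few calls. Of 13 measured, ALPL, a phosphatase of bone-forming cells, rose by 1.04 ± 0.11 (adjusted p = 0.000649), though from a signal below the 25th percentile. SOX9, HEY1 and GATA3 fell, by 0.44, 0.55 and 0.36, and the other 9 did not pass. That is 30.8% called, near the 29.8% of all rows, with a median difference of -0.05. GATA3 did not pass without any 1 library other than control replicate 3 (adjusted p from 0.0674 to 0.139), and HEY1 did not pass without anti-PD-1 replicate 2 (adjusted p = 0.0536).

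Secreted antagonists bind ligands and keep them from receptors. FSTL3, which neutralises activins, had signals of 10.76, 10.84 and 10.99 in anti-PD-1 samples, against 9.29, 9.61 and 9.60 in control samples. It rose by 1.36 ± 0.12 (adjusted p = 0.000255), and its lowest anti-PD-1 sample lay more than 1 log2 unit above its highest control sample. NOG, the BMP antagonist noggin, was higher by 0.44 ± 0.13 (adjusted p = 0.0446), a call lost without any 1 library other than control replicate 1 (adjusted p from 0.071 to 0.133). FST, the activin antagonist follistatin, differed by 0.12 ± 0.23, and GREM1, the BMP antagonist gremlin, by 0.09 ± 0.12. Neither passed, and none of 3 further rows named GREM1 did so.

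Nuclear repressors hold SMAD target genes in check. SKIL, also a target of TGF-beta signalling, had signals of 11.06, 10.99 and 10.89 in anti-PD-1 samples, against 10.47, 10.22 and 10.28 in control samples, and rose by 0.66 ± 0.10 (adjusted p = 0.00322). Its relative SKI, with anti-PD-1 signals of 7.17, 6.39 and 7.12 and control signals of 6.76, 7.14 and 6.84, overlapped between groups (-0.02 ± 0.22). TGIF1, a homeodomain repressor, was higher by 0.34 ± 0.10 (adjusted p = 0.0461), but did not pass without any 1 library other than control replicate 3 (adjusted p from 0.0772 to 0.129).

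Further genes of the pathway were read from 4 lists. Of 19 further ligands 2 were higher and 0 lower (10.5%, against 29.8% of all rows), with a median difference of 0.11. GDF15, a stress-induced ligand, rose by 1.13 ± 0.14 (adjusted p = 0.00128), with signals of 9.57, 9.20 and 9.44 in anti-PD-1 samples, against 8.04, 8.42 and 8.36 in control samples. GDF5 was higher by 1.26, but its mean of 4.58 in anti-PD-1 samples and 3.33 in control samples lay below the 25th percentile. Of these 19 genes 11 lay below that level. Of 6 further receptors and co-receptors RGMB, a BMP co-receptor, was higher by 0.66 (adjusted p = 0.0179) and TDGF1, a dim row for a co-receptor of NODAL, by 0.47 (adjusted p = 0.0479). That is 33.3% called, near the 29.8% of all rows. RGMB did not pass without control replicate 2 or 3 or anti-PD-1 replicate 1 or 3 (adjusted p from 0.0542 to 0.0611), nor TDGF1 without any 1 library other than control replicate 2 (adjusted p from 0.0684 to 0.138).

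Among 19 further secreted antagonists and activators of latent ligand 2 were higher and 1 lower (15.8%, against 29.8% of all rows). Of these 19 genes 5 lay below the 25th percentile of row means and 6 above the median signal, where 48% of rows passed. THBS1, thrombospondin 1, which activates latent TGF-beta, had signals of 16.50, 16.50 and 16.52 in anti-PD-1 samples, against 14.97, 14.95 and 14.87 in control samples. Its rise of 1.58 ± 0.08 (adjusted p = 2.69e-05) was the largest in this list. FBN1, the microfibril protein fibrillin 1, was higher by 1.41 ± 0.20 (adjusted p = 0.00215), and TWSG1, a modulator of BMPs, lower by a difference of -0.38 (adjusted p = 0.0296). TWSG1 did not pass without control replicate 1 or 3 or anti-PD-1 replicate 1 or 2 (adjusted p from 0.078 to 0.0922). The integrin subunits ITGAV, ITGB6 and ITGB8, which release active TGF-beta, did not pass by their signals and are rows in conflict. The authors' deposited table gives them false discovery rates of 0.0001, 0.1 and 0.0819. ITGB8 passed without control replicate 3 (adjusted p = 0.0391).

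Intracellular regulators were called in 9 of 17 genes (52.9%), 7 higher and 2 lower, with 15 of the 17 above the median signal, where 48% of all rows passed. SMURF2, a ubiquitin ligase that removes receptors and SMADs, rose by 1.48 ± 0.08 (adjusted p = 3.69e-05), with signals of 14.31, 14.35 and 14.34 in anti-PD-1 samples, against 12.91, 12.87 and 12.78 in control samples. PMEPA1, a feedback inhibitor induced by TGF-beta, had 13.25, 13.14 and 13.26 in anti-PD-1 samples, against 12.21, 12.56 and 12.44 in control samples, and rose by 0.81 ± 0.11 (adjusted p = 0.00191). TGIF2, ZFYVE9 and CREBBP were higher by 0.67, 0.57 and 0.57. TRIM33, a ubiquitin ligase that acts on SMAD4, fell by 0.45 ± 0.08 (adjusted p = 0.00513). The other lower call was SMURF1, a relative of SMURF2 named here after its value was seen (-0.28 ± 0.09, adjusted p = 0.0472). It did not pass without any 1 library other than control replicate 1 (adjusted p from 0.107 to 0.124), which left 1 lower call, nor with the replicate number as a block (adjusted p = 0.0956).

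Of 31 measured genes known to respond to TGF-beta 12 were higher and 7 lower (61.3%, against 29.8% of all rows and 48% of rows above the median signal, where 23 of the 31 lie), with a median difference of 0.41. Without control replicate 2, and likewise without control replicate 3, 11 were higher and 4 lower. The lower calls lost were PTHLH, JUNB and BHLHE40, named here after their values were seen (adjusted p from 0.06 to 0.102). CNN1, TAGLN and TPM1, which encode actin-binding proteins of contractile cells, rose by 6.46 ± 0.14, 3.71 ± 0.11 and 1.79 ± 0.09. CTGF, a matricellular protein, rose by 2.34 ± 0.10 and COL1A2, a chain of type I collagen, by 3.15 ± 0.14. SPHK1, a sphingosine kinase, fell by 2.11 ± 0.10 (adjusted p = 2.26e-05), with signals of 9.31, 9.41 and 9.39 in anti-PD-1 samples, against 11.62, 11.34 and 11.49 in control samples. KLF10, IL11 and ANGPTL4, likewise named after their values were seen, were lower too. Their differences were -0.80, -0.75 and -1.06 (adjusted p = 0.00045, 0.00244 and 0.0095), and they passed with each single array left out. The list was written with results of these samples known, so that its count is a description.

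COL1A2, which responds to TGF-beta, is also a fibroblast marker. Of 9 fibroblast markers it alone passed (11.1%, against 29.8% of all rows), and the median difference over all 9 was 0.07. The log2 of their summed linear signal lay between 13.95 and 14.03 in anti-PD-1 samples and between 11.50 and 12.22 in control samples. COL1A2 averaged 13.69 in anti-PD-1 samples and 10.54 in control samples and makes up most of the summed level in anti-PD-1 samples. Of 9 pericyte and smooth muscle markers 2 were higher (22.2%), PDGFRB (1.26) and DES (1.01), and the median difference over all 9 was 0.23. With ACTA2, a row in conflict that reaches 10.55 in 1 anti-PD-1 sample, the 9 had a summed level of 10.58 to 11.26 in anti-PD-1 samples and 10.17 to 10.38 in control samples. The 8 fibroblast markers that did not pass had differences from -0.58 (FAP) to 0.92 (LUM), with DCN at 0.03 and PDGFRA at 0.21. Among them COL1A1 was read from a row that covers a short stretch (chr17:50200287-50200367) and differed by 0.36 (adjusted p = 0.337). The part of such cells in the response genes was not tested.

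Of the response genes 7 are rows in conflict, among them COL4A1, FN1, ACTA2, SNAI1, SNAI2 and ZEB1. These 6 did not pass by their signals. With 1 array left out some of them did, namely COL4A1 without anti-PD-1 replicate 3 (adjusted p = 0.0338), SNAI2 and ZEB1 without anti-PD-1 replicate 2 (0.0382 and 0.0261), and FN1 and SNAI1 without control replicate 1 (0.0226 and 0.0317). In the authors' deposited table the false discovery rate is 3.08e-06 for ACTA2, 2.87e-05 for FN1 and 0.0008 for SNAI1. It is above 0.05 there for COL4A1, SNAI2 and ZEB1. With the letters exchanged, the deposited averages of SNAI1 and ZEB1 run opposite to their signals. With the 7 rows set aside, 11 of 24 response genes were higher and 7 lower.

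**Figure D4:**
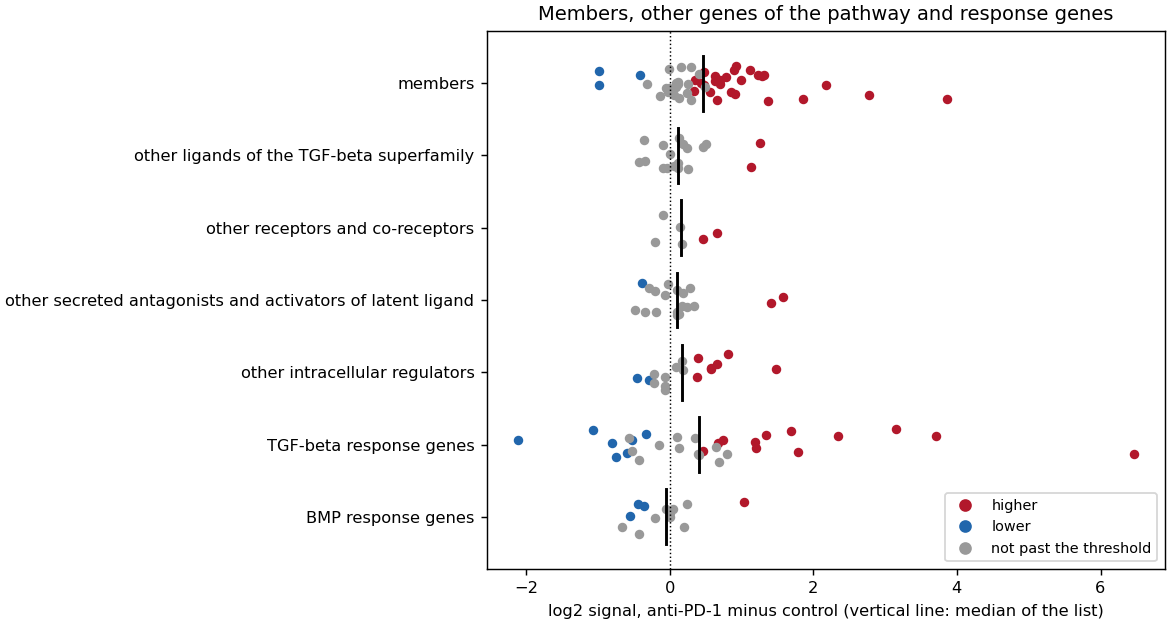
Difference in log2 signal, anti-PD-1 minus control, for each gene of the member set and of 6 further lists (points), with the median of each list as a vertical line. The members have a median of 0.46, TGF-beta response genes spread from -2.11 to 6.46 around a median of 0.41, and BMP response genes lie around -0.05.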

How the data were processed

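Gene-level log2 signals of 6 arrays were deposited, made with SST-RMA per the file headers; the submitters' processing notes name Transcriptome Analysis Console, with no version. Beside the signals the authors deposited log2 averages, SDs (other values, per the file headers), a signed fold change (a score), a p-value and a false discovery rate. Of 22206 identifiers 21448 had values. Workbook and series value table differed by at most 0.

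Deposited averages were compared with Tukey's biweight of the 3 signals, chosen after plain means matched in 10142 rows only; the biweight matched the opposite letter in 21363. Rows whose averages (tolerance 0.05) and SDs (tolerance 0.02) match under neither naming are called rows in conflict (111 rows). The biweight and the SD criterion were adopted after the values were seen.

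All 6 arrays entered 1 fit over all rows with group as the term (lmFit, then eBayes, of limma 3.58.1 under R 4.3.3), tested 2-sided with Benjamini-Hochberg adjustment and a threshold of 0.05. The fit was tested on simulated data.

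Members and gene lists were chosen with earlier results of these data known. Values of each sample are given for members at least 2-fold apart, those in conflict and the strongest nuclear repressor, by rule. For other genes, and for the receptor classes and bright rows counted separately, the choice followed the values. From each further list the text names up to 6 called genes of smallest p, rows in conflict, THBS1, GDF15 and PMEPA1. A result on 1 further response gene is not reported here. SD and SE rest on 3 arrays a group. Replicate numbers did not pair the arrays (correlations of deviations 0.013, -0.024 and 0.013). Alternatives were other normalizations, filters on dim rows, other priors and weights, a replicate block, and removal of single arrays or of rows in conflict.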

Additional observations from a re-analysis of the deposited data

How the results depend on the processing

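Over the alternatives run for single genes, 23 of the 29 called members passed in every one they entered, and 6 (INHBB, LTBP1, LTBP3, TGFBR3, NOG and TGIF1) did not pass in at least 1. No called member changed sign. TGFB1 passed after removal of rows under the median (adjusted p = 0.0492) and with a trended robust prior (adjusted p = 0.0111), and SMAD4 with these and after removal of rows under the 25th percentile. Called members numbered 27 after quantile normalization, 25 after median centring, 31 with the trended robust prior and 24 with a replicate block, which shares a number but no stated pairing and gave 5363 called rows in all. Without each array in turn they numbered 24 or 25. The exchange of group names turns every sign by construction: it gave 3 members higher and 26 lower, 0 and 9 at 2-fold, 13 and 26 in the further lists, and a median of -0.46. Members lower by 2-fold numbered 0, but 2 after median centring (BMP4 and ID1 lie near the limit), and 0 to 2 without single arrays, 2 of them without control replicate 3 and 1 without anti-PD-1 replicate 1. Calls of lower signal in the further lists ranged from 7 (without anti-PD-1 replicate 2) to 11 without single arrays, against 13. Calls among the further receptors numbered 0 without control replicate 3, anti-PD-1 replicate 1 or anti-PD-1 replicate 3, against 2. The series value table was not run separately because its signals are equal. With 3 arrays a group and no background signal, dim genes such as BMP6 and BMP7 have no measured floor.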

Other observations

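Rows whose deposited averages do not follow from their signals make up 0.52% of all rows, 8.33% of the members and 9.52% of the 105 further pathway and response genes. The members and further genes together hold 14 of the 111 such rows. For ACTA2, smooth muscle actin, signals were 9.34, 10.55 and 9.30 in anti-PD-1 samples, against 9.08, 8.89 and 9.17 in control samples. They averaged 9.73 ± 0.71 in anti-PD-1 samples and 9.05 ± 0.14 in control samples (SD, n = 3 each), whereas the authors' deposited table has averages of 13.30 (named C) and 8.52 (named P). SNAI2, a repressor of epithelial genes, averaged 9.68 in anti-PD-1 samples and 9.27 in control samples by its signals, beside averages of 13.87 (named C) and 13.83 (named P) in the authors' deposited table. COL4A1, a basement membrane collagen, averaged 8.17 in anti-PD-1 samples and 8.74 in control samples, beside 3.27 (named C) and 3.57 (named P) there. The authors' deposited table gives a false discovery rate under 0.05 for 30 of the 48 members. These are the 29 called here and TGFB1. With the letters of the averages exchanged, the deposited fold changes of SMAD3 (-1.66) and TGFB1 (-2.74) run opposite to their signals.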
